A study of Mus musculus with 46 samples.

Results

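Iron storage, uptake and heme use in microglia, the resident macrophages of the brain, were followed through 10 genes: the ferritin chains Fth1 and Ftl1, the ferritin cargo receptor Ncoa4, the importers Tfrc, Slc11a2 and Slc11a1, the exporter Slc40a1, the heme-breakdown enzymes Hmox1 and Blvrb, and the iron sensor Ireb2. They were matched by name in raw counts of 54134 gene symbols, and all 10 passed the filter on low counts. The table held 46 bulk RNA-seq libraries of microglia from wild-type (WT, 22 libraries) and 5xFAD mice (labelled AD, 24 libraries), of both sexes. 5xFAD is a transgenic model in which neurons express mutant human amyloid precursor protein and presenilin under a Thy1 promoter. The 3 diets of each genotype were zero fiber, control and HAMSAB, the last holding high-amylose maize starch that carries acetate and butyrate. This gave 6 sets of 8 libraries, except zero fiber WT with 6. Within a set, libraries were split by sex into 2 groups of 4, except zero_fiber_WT_M with 2. The labels are silent on age, strain background, time on the diet, the way the microglia were isolated, and whether separate mice gave the libraries. The p-values therefore weigh effects against the variation among these libraries. They carry over to mice only if separate mice gave the libraries. In bulk RNA, fewer cells of a type and less RNA per cell cannot be told apart.

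Iron enters a cell bound to transferrin through the receptor Tfrc and crosses the endosome membrane through Slc11a2, also called DMT1. Ferritin, a shell of heavy (Fth1) and light (Ftl1) chains, stores it, Ncoa4 delivers ferritin to lysosomes for release, and ferroportin, Slc40a1, is the route out of the cell. Macrophages also obtain iron by opening the heme ring with Hmox1, whose product biliverdin is reduced by biliverdin reductases, among them Blvrb. In low iron, the proteins Aco1 and Ireb2 bind hairpins called iron-responsive elements (IREs). This blocks translation of transcripts with an IRE in the 5′ UTR and stabilizes the Tfrc transcript, which has several in its 3′ UTR, so that for the ferritin chains and for ferroportin the transcript level alone does not give the protein level.

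The sequences are shown because an IRE in the 5′ UTR acts through translation, which a read count does not follow. Those in the 3′ UTR of Tfrc act through stability, which a read count does follow. The IRE core was searched on the sense strand of annotated UTRs (GENCODE M21, GRCm38) as an unpaired C, 5 stem bases, the 6-base loop CAGTGN and 5 bases that pair with the first 5, G-U pairs allowed. Of 22500 coding genes, 175 (0.778%) held a match in a UTR, and 4 of the 10 genes did: Fth1, Ftl1 and Slc40a1 in the 5′ UTR and Tfrc at 4 places in the 3′ UTR. Each 28-base window is printed 5′ to 3′ on the transcript strand with the loop in capitals. A match is a description of letters, and the other 6 genes only lack these letters in the windows searched. The search allowed no mismatch or bulge in the 5 stem pairs, so it would miss an IRE of another shape. Lack of a match therefore does not tell that the sensor leaves a transcript alone.
Fth1, 5′ UTR, chr19:9982732-9982759, plus strand: ttcctgcttcaaCAGTGCttgaacggaa
Ftl1, 5′ UTR, chr7:45459780-45459807, minus strand: gtcttgcttcaaCAGTGTttgaacggaa
Slc40a1, 5′ UTR, chr1:45925466-45925493, minus strand: caacttcagctaCAGTGTtagctaagtt
Tfrc, 3′ UTR, chr16:32631219-32631246, plus strand: aattatcggaagCAGTGCcttccataat
Tfrc, 3′ UTR, chr16:32631598-32631625, plus strand: cattatcgggagCAGTGTcttccataat
Tfrc, 3′ UTR, chr16:32631663-32631690, plus strand: ctatatcggagaCAGTGAtctccatatg
Tfrc, 3′ UTR, chr16:32631710-32631737, plus strand: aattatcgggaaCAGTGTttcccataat

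Total counts per library ran from 52114 to 6950429, with a median of 2344837.5. The lowest belonged to zero_fiber_AD_M replicate 2 and the next, 783849, to another library of that group. The library labelled zero_fiber_AD_F replicate 1 went against its sex label, with 1 read of Xist, against 653.5 CPM or more in the other 23 libraries labelled female. CPM are read counts scaled to a library size adjusted by TMM. Results that rest on these 2 libraries, called the doubted ones, are given with and without them, except where said. Defining microglial markers summed to between 23811 and 38272 CPM in every library, against 0 to 28.2 CPM for monocyte and neutrophil markers and 4.34 to 39.8 for neuronal ones. Astrocyte markers summed to 151 to 377 CPM, oligodendrocyte markers to 77.3 to 180.02, choroid plexus markers to 21.8 to 355 and endothelial markers to 0 to 120.2 CPM. Library titles carry a number, under 2900 for 23 libraries and from 2900 upward for 22, and for 1 it is 000. The labels do not say whether these 2 title series are batches, and differences of mean log2(CPM + 1) within each (under 2900, the lower series, and from 2900, the higher) are given beside set differences named for a gene. They rest on 1 to 7 libraries per set and carry no test. Both doubted libraries are in the lower series, and values within it are given only with them. Sexes are not balanced within the series, and every HAMSAB_AD_M library is in the lower.

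Levels differed far more between the genes than between the diets or genotypes. Per kilobase of the principal transcript, the mean over 46 libraries was 1110 CPM for Fth1, 80.5 for Slc11a1, 65.7 for Blvrb, 62.6 for Ftl1 and 50.4 for Slc40a1. Ireb2 stood at 12.5 CPM per kilobase, Hmox1 at 9.43, Slc11a2 at 9.18, Ncoa4 at 7.98 and Tfrc at 3.20. By this measure the ferritin chains, the phagosomal transporter, the heme-pathway reductase and the exporter were the abundant transcripts, and the receptor for transferrin the scarcest. Division by length assumes reads along the whole transcript, which is not known here. In CPM without it, Hmox1 (14.8) lay below Tfrc (15.6), and Ireb2 (72.2) above Blvrb (67.5) and Ftl1 (60.6). The place of Ftl1 in either order does not count the reads assigned to its copy, described with that gene. Between the 6 sets, the ratio of the highest to the lowest set mean was 1.09 for Slc11a2, 1.10 for Slc11a1, 1.15 for Hmox1, 1.17 for Slc40a1, 1.18 for Ftl1 and Ireb2, 1.22 for Ncoa4, 1.24 for Blvrb, 1.25 for Fth1 and 1.45 for Tfrc. The highest Tfrc mean, 17.7 CPM in zero fiber AD, was 15.2 CPM without the 2 doubted libraries, below the 16.8 CPM of control WT. For none of the 10 genes did the values of any 2 sets lie apart, over 15 pairs of sets each. The share of all tested genes with sets that lie apart was not counted. Overlap of ranges is not a test, so this only describes the values.

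**Figure D1:**
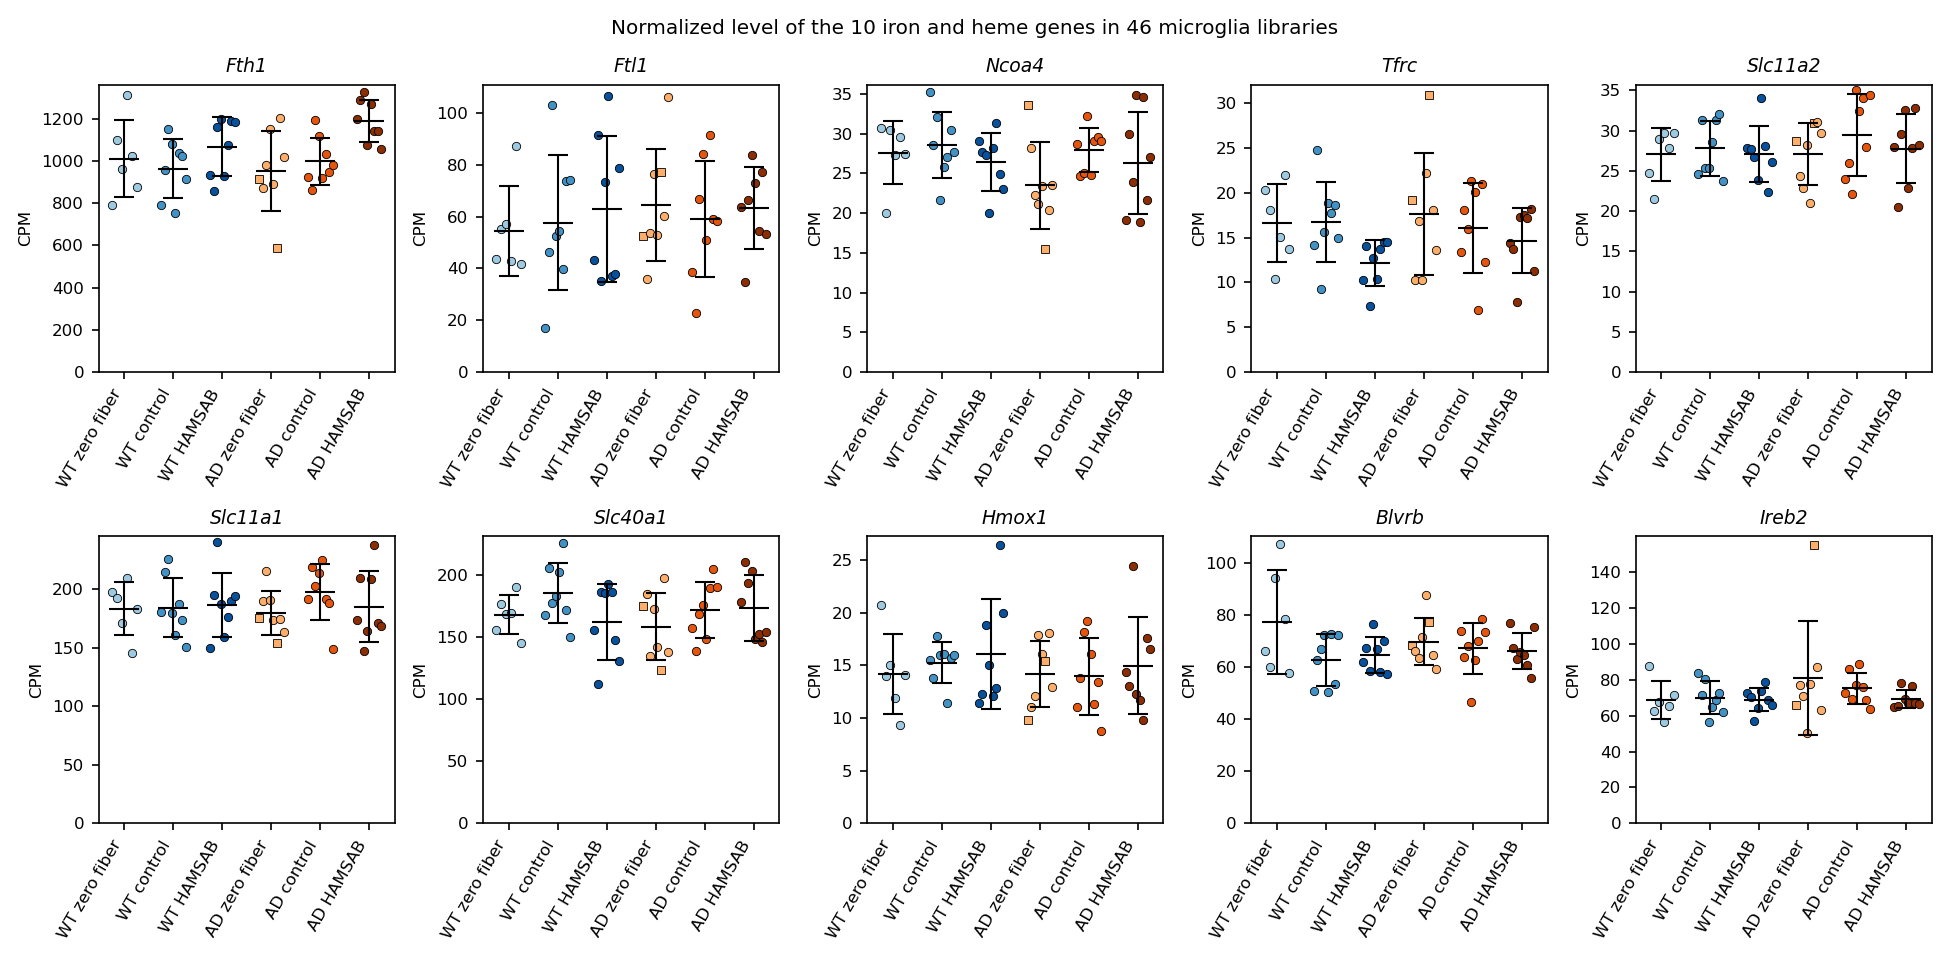
CPM of each gene (y axis, from 0) in the 6 diet and genotype sets (x axis), 1 point per library, with the mean and SD of each set in black and the low-depth and sex-mismatched libraries as squares. The sets overlap for every gene, and Fth1 in HAMSAB AD libraries has the highest set mean, 1189 CPM.

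The question of the design is how diet and genotype relate to microglial expression, and for these genes no difference passed the test. In edgeR's quasi-likelihood test with Benjamini-Hochberg adjustment over 12121 genes, 0 of 10 were called (adjusted p under 0.05) in each of the 14 comparisons. For HAMSAB against zero fiber, 0.239% of all tested genes were called in AD and 2.19% in WT. For HAMSAB against control the shares were 0.0743% in AD and 0.281% in WT, and for zero fiber against control 0.0578% and 0.00825%. For AD against WT they were 0.00825% on zero fiber, 0% on control and 1.68% on HAMSAB. The difference between genotypes in the diet effect was called for 1.08% of genes for HAMSAB against zero fiber and for 0% in the other 2 diet pairs, males against females for 0.124% and the slope on globin level for 0.033%. A count of 0 of 10 therefore sits near the background in every comparison. At an unadjusted p under 0.05, 7 of the 140 values passed, at most 1 gene per comparison, where 4.7% to 15.3% of all tested genes did. DESeq2 and limma voom with quality weights also called 0 of the 140.

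The intervals say how large a difference could have been missed. Over the 9 comparisons of 2 sets, log2 fold changes of the 10 genes ran from -0.47 to 0.29 and all 90 of their 95% intervals lay within 2-fold, 79 of them within 1.5-fold. The widest were those of Ftl1, which reached 1.71-fold up and 0.658-fold, and Tfrc, which reached 0.533-fold. Slc40a1, Slc11a1, Slc11a2, Ncoa4, Ireb2, Fth1 and Blvrb stayed within 1.5-fold in all 9. The medians over the 10 genes ran from -0.05 (zero fiber against control in AD) to 0.04 (AD against WT on control), beside medians of all tested genes between -0.01 and 0.01. The diet comparisons of a genotype share libraries, so their values are not independent.

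**Figure D2:**
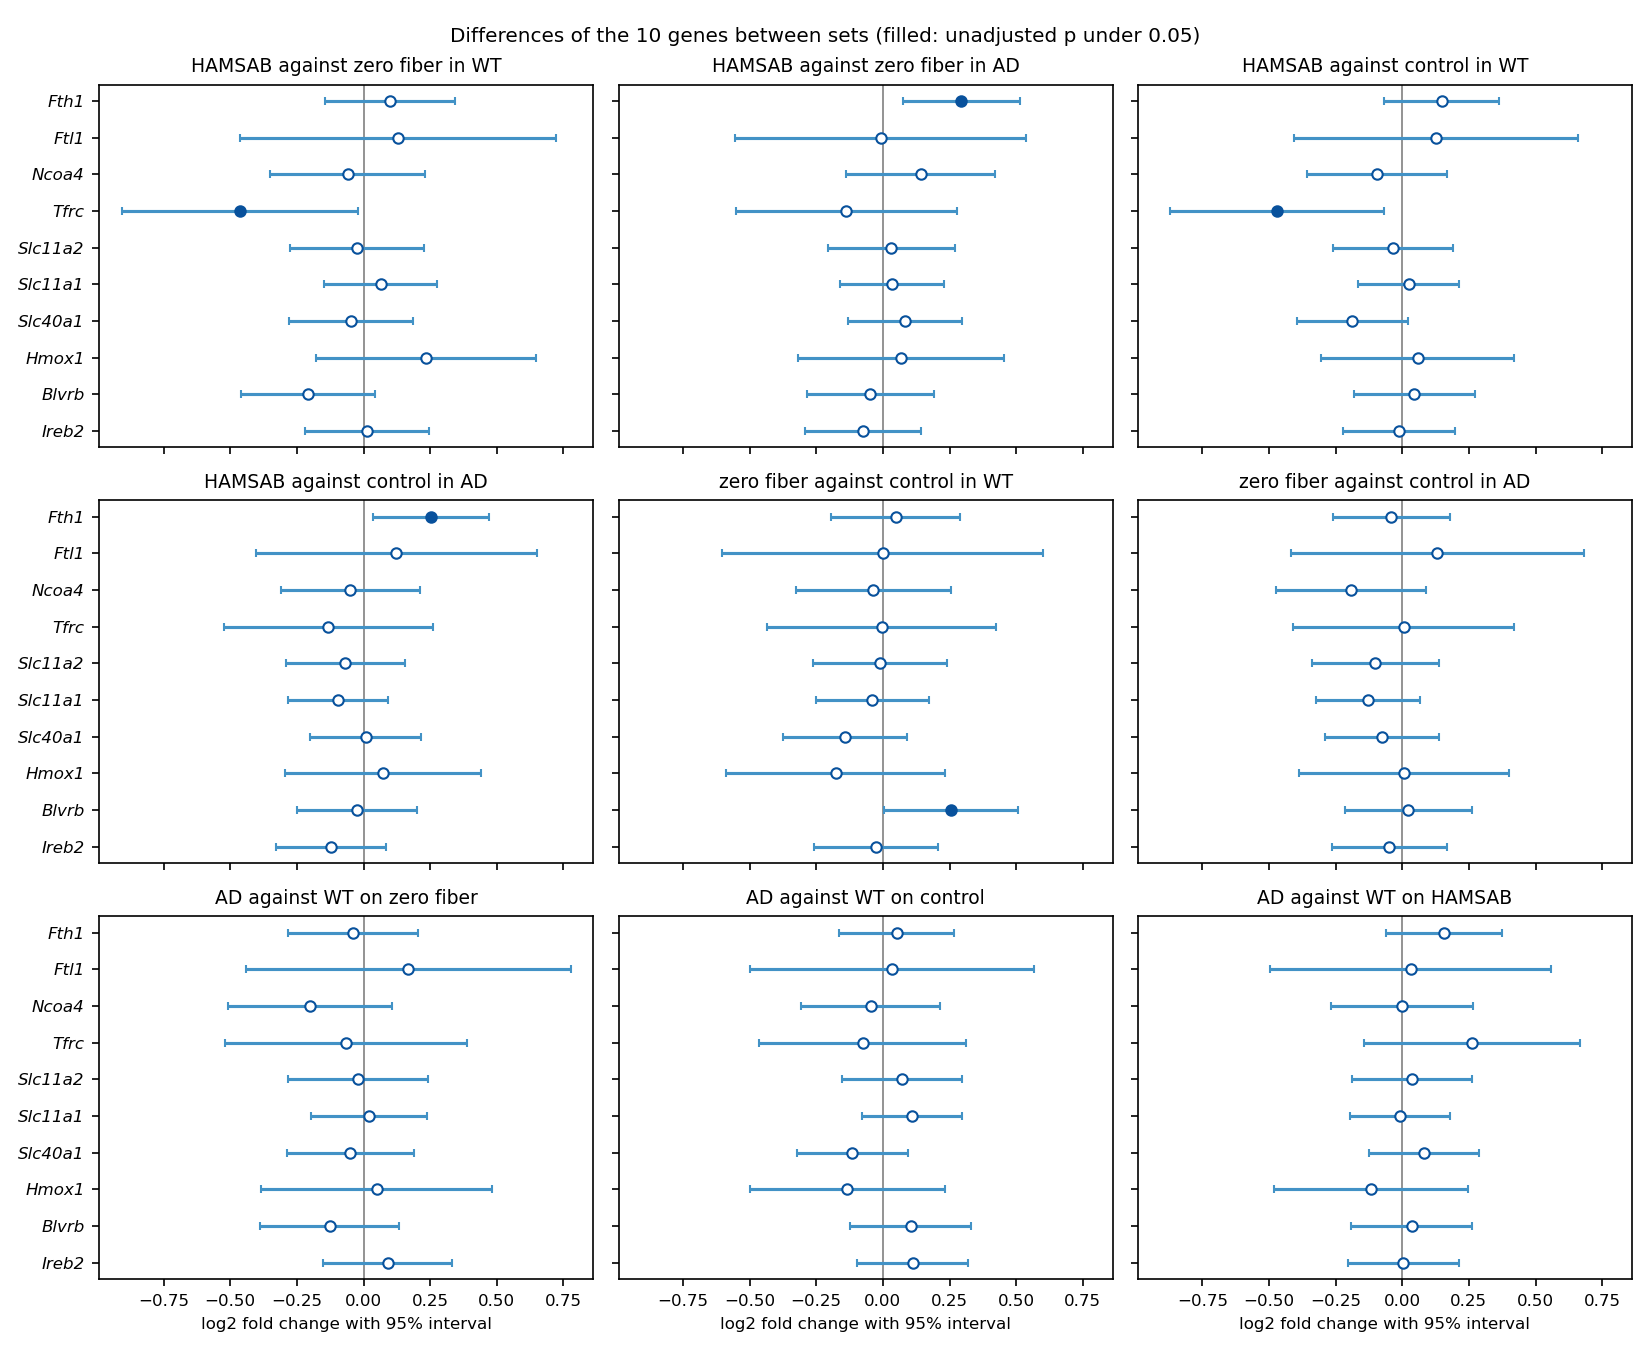
Log2 fold change with its 95% interval (x axis) for the 10 genes (y axis) in the 9 comparisons of 2 sets, filled where the unadjusted p was under 0.05. The 5 filled points are Fth1 in both HAMSAB comparisons in AD, Tfrc in both in WT and Blvrb in zero fiber against control in WT, and none passed after adjustment.

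Fth1, the heavy ferritin chain with the ferroxidase site (chromosome 19, 9980598 to 9985098, plus strand), was the gene with the smallest p. In HAMSAB AD libraries its lowest, median and highest values were 1059, 1173 and 1327 CPM. Zero fiber AD libraries gave 587, 948 and 1203 CPM, and control AD libraries 862, 964 and 1197 CPM. The HAMSAB values were the highest on average but overlapped both other diets. The log2 fold change of HAMSAB against zero fiber in AD was 0.29 ± 0.11 (SE; 95% interval 0.07 to 0.51; edgeR adjusted p = 0.3, rank 388 of 12121 by p). Against control it was 0.25 ± 0.11 (adjusted p = 0.251). Neither was called.

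The value of 587 CPM rested on 38 Fth1 reads of the low-depth library zero_fiber_AD_M replicate 2. Without the 2 doubted libraries the lowest zero fiber AD value was 872 CPM, and the log2 fold changes were 0.22 (adjusted p = 0.505) against zero fiber and 0.25 (0.213) against control. Over the 16 fits that each left out 1 library of the 2 sets, the first ranged from 0.24 to 0.35 and the second from 0.21 to 0.29. As a difference of mean log2(CPM + 1), HAMSAB against zero fiber in AD was 0.34 in all libraries, 0.41 in the lower series (5 against 4 libraries) and 0.39 in the higher (2 against 4). Against control it was 0.26, 0.32 and 0.31. The 4 zero fiber AD libraries of the lower series include both doubted ones, with the 587 CPM value. Both HAMSAB AD libraries of the higher series are female. In WT, set means of Fth1 were 1012 ± 184 CPM on zero fiber (SD, n = 6), 964 ± 139 on control and 1067 ± 140 on HAMSAB (n = 8 each). The log2 fold change of HAMSAB against zero fiber in WT was 0.10 (0.08 in the lower series and 0.07 in the higher), and the AD and WT effects differed by 0.19 ± 0.16 (SE; edgeR adjusted p = 0.817), which was not called.

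Ftl1, the light chain that aids iron core formation (chromosome 7, 45457944 to 45459884, minus strand), gave the least certain counts. Of the 50-base windows of its transcript, 78.9% also occur in transcripts of 15 other genes, and a processed copy, Ftl1-ps1, held 12034 reads in total, more than the 6516 assigned to Ftl1. The copy was counted in all 46 libraries. Whether multi-mapping reads were dropped, shared or counted repeatedly is not given here. The share of Ftl1 in the sum of both rows ran from 14.5% (67 Ftl1 reads, 95% Wilson interval 11.6% to 18%, control_WT_F replicate 1) to 52.0% (46.8% to 57.1%, HAMSAB_WT_M replicate 1). These intervals cover counting error only and do not meet. In each set the share spread widely, with set medians between 32.9% and 36.7%.

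Ftl1 itself varied by 37.7% within sets (coefficient of variation), against 9.16% for counting error (the root mean square of 1 over the square root of the count). Both leave out the 2 doubted libraries, and the median was 132 reads. The sum of Ftl1 and Ftl1-ps1 varied by 16.2% over all 46 libraries, where Ftl1 alone varied by 35.5% and the copy by 14.4%. Set means of the sum were 156 ± 22.9 CPM in zero fiber WT (SD, n = 6), 163 ± 29.5 in control WT and 170 ± 29.9 in HAMSAB WT (n = 8 each). In AD they were 169 ± 30.3 on zero fiber, 161 ± 24.4 on control and 177 ± 26.9 on HAMSAB (n = 8 each). The sets of the sum overlapped as those of Ftl1 did. Ftl1's own log2 fold changes ran from -0.01 (HAMSAB against zero fiber in AD) to 0.17 (AD against WT on zero fiber), with SE from 0.26 to 0.30. Both of these values changed sign when some single libraries were left out. Within the lower and higher series the first was 0.08 and -0.38 and the second 0.14 and 0.34. The log2 ratio of Fth1 to Ftl1 was 4.25 ± 0.45 in HAMSAB AD and 3.90 ± 0.55 in zero fiber AD (SD, n = 8 each; two-sided exact permutation p = 0.199, or 0.674 when adjusted for the 27 tests). That was the smallest p of the 9 comparisons of this ratio. The difference of 0.34 was 0.33 in the lower and 0.77 in the higher series, and 0.21 (adjusted exact permutation p = 0.979) without the 2 doubted libraries.

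**Figure D3:**
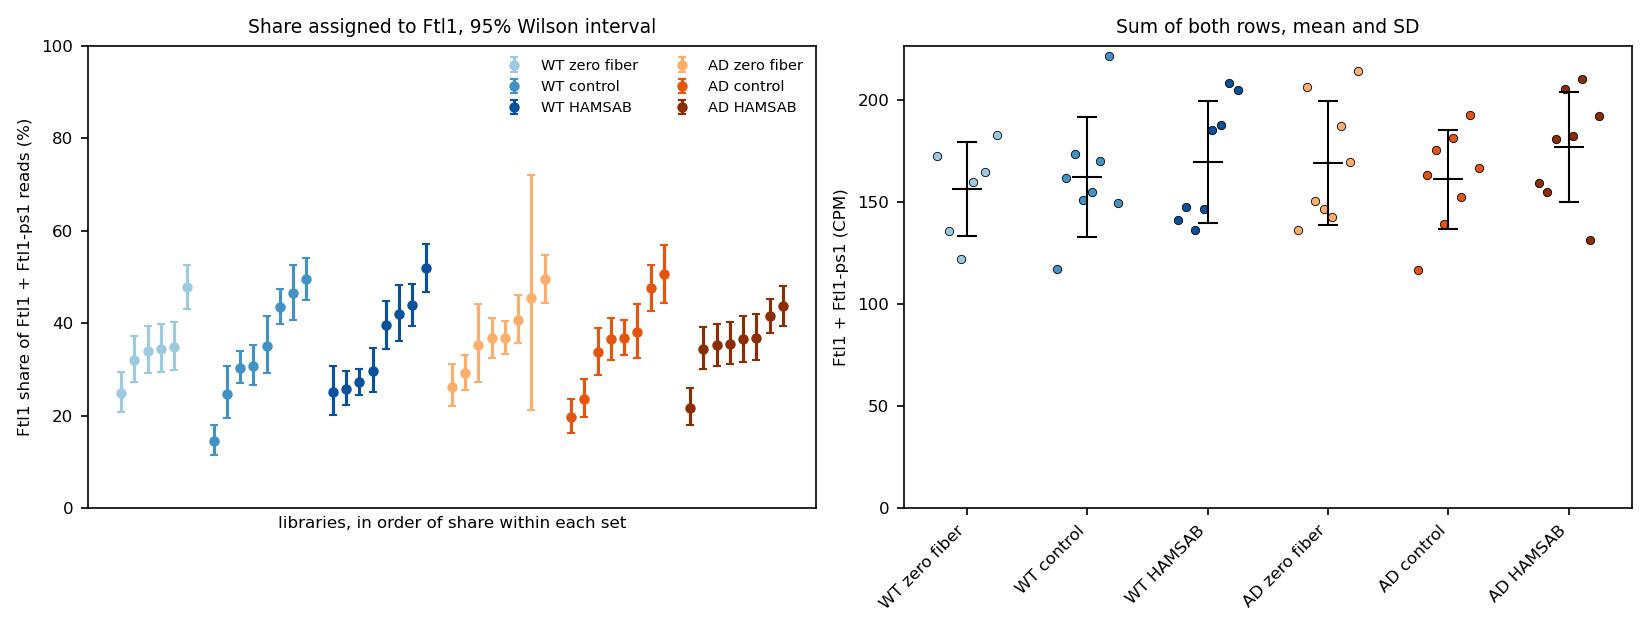
Left, the share of Ftl1 in the reads of Ftl1 and Ftl1-ps1 (y axis, percent) for each library, ordered by share within each set, with 95% Wilson intervals. Right, the sum of both rows in CPM by set, with mean and SD. The share runs from 14.5% to 52.0% while the set means of the sum lie between 156 and 177 CPM.

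Ncoa4, the cargo receptor that takes ferritin to lysosomes (chromosome 14, 32159865 to 32179855, plus strand), had its lowest set mean in zero fiber AD, at 23.5 ± 5.43 CPM, and its highest in control WT, at 28.6 ± 4.12 CPM (SD, n = 8 each). In zero fiber AD its values were 15.5 at the lowest, 22.9 at the median and 33.6 CPM at the highest. Both extremes came from the 2 doubted libraries, and without them the set ran from 20.3 to 28.2 CPM. Log2 fold changes ran from -0.20 (AD against WT on zero fiber) to 0.14 (HAMSAB against zero fiber in AD), none called. With 1 library left out the first ran from -0.28 to -0.16 and the second from 0.03 to 0.22. Within the lower and higher series the first was -0.24 and -0.28 and the second 0.08 and 0.17. Its within-set variation, 15.4%, was near the 13.5% of counting error, with a median of 60.5 reads. Its transcript shares 52.5% of its 50-base windows with Gm6768, which held 11 reads in all libraries together.

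Among the importers, Tfrc, the transferrin receptor (chromosome 16, 32608920 to 32632794, plus strand), was lowest in HAMSAB WT. The lowest, median and highest values there were 7.40, 13.2 and 14.6 CPM. Zero fiber WT libraries gave 10.3, 16.6 and 22 CPM, and control WT libraries 9.31, 16.7 and 24.8 CPM. The highest HAMSAB values fell inside the range of both other diets. The log2 fold change of HAMSAB in WT was -0.46 ± 0.22 against zero fiber (SE; edgeR adjusted p = 0.382) and -0.47 ± 0.20 against control (adjusted p = 0.276), neither called. With 1 library left out the first ran from -0.62 (without zero_fiber_WT_M replicate 2) to -0.28 (without zero_fiber_WT_M replicate 1) and the second from -0.54 to -0.33. As differences of mean log2(CPM + 1), the first was -0.40 in all libraries, -0.52 within the lower series and -0.15 within the higher. The second was -0.42 in all and -0.53 in the higher series, where the lower held 1 control library. In AD the log2 fold changes were -0.14 against zero fiber and -0.13 against control. Within the series these were -0.49 (lower) and -0.24 (higher) against zero fiber, and 0.17 and -0.67 against control, so the sign of the second differed between them. The zero fiber AD libraries of the lower series include both doubted ones. The low-depth one gave the highest Tfrc value of that set, 30.9 CPM, from 2 reads. The value of -0.49 was not computed without them. The difference between genotypes was 0.33 ± 0.30 (SE; adjusted p = 0.847) for HAMSAB against zero fiber and 0.34 ± 0.28 (adjusted p = 0.948) for HAMSAB against control. Tfrc was counted with a median of 33.5 reads per library, and counting error was 18.4%, beside 27.7% of variation within sets.

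Slc11a2, the divalent metal transporter of endosomes (chromosome 15, 100387898 to 100425072, minus strand), had the smallest ratio of highest to lowest set mean of the 10 in all libraries. Set means lay between 27.1 ± 3.28 CPM in zero fiber WT (SD, n = 6) and 29.5 ± 5.10 CPM in control AD (n = 8), and its log2 fold changes between -0.10 and 0.07. The lowest, zero fiber against control in AD, was -0.06 in the lower and -0.16 in the higher series. Without the 2 doubted libraries zero fiber AD had the lowest mean, 26.2 CPM, and that rank was lost. Set means of Slc11a1 then lay between 183 and 198 CPM, closer together in proportion. The variation of Slc11a2 within sets, 14.4%, was close to the 13.1% of counting error. Slc11a1, the related transporter of macrophage phagosomes also called NRAMP1 (chromosome 1, 74375195 to 74386062, plus strand), was more abundant. Set means lay between 180 ± 19 CPM in zero fiber AD and 198 ± 23.8 CPM in control AD (SD, n = 8 each). The log2 fold change between those sets was -0.13, and -0.10 without the doubted libraries, where the zero fiber AD mean was 185 CPM. It was -0.28 in the lower series and 0.02 in the higher (4 against 4 libraries each). Slc11a1 was lower in males than in females by a log2 fold change of -0.12 ± 0.06 (SE; edgeR adjusted p = 0.461), which was not called. It was -0.13 without the doubted libraries and -0.11 with a term for the title series.

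Slc40a1, ferroportin, the only known cellular iron exporter (chromosome 1, 45908068 to 45926523, minus strand), had its lowest set mean in zero fiber AD and its highest in control WT. Values in zero fiber AD were 124, 157 and 197 CPM (lowest, median and highest), in control AD 139, 172 and 205 CPM and in HAMSAB AD 146, 166 and 211 CPM. Among WT libraries, zero fiber gave 146, 169 and 190 CPM, control 150, 180 and 226 CPM, and HAMSAB 112, 171 and 193 CPM. All 6 ranges overlapped. Log2 fold changes ran from -0.19 (HAMSAB against control in WT) to 0.08 (HAMSAB against zero fiber in AD), none called. The first was -0.10 in the lower series, with 1 control library, and -0.17 in the higher. The second was -0.01 in the lower and 0.37 in the higher (2 against 4 libraries). The log2 ratio of Slc40a1 to Tfrc, export against uptake, was 3.63 ± 0.53 in HAMSAB WT (SD, n = 8) and 3.30 ± 0.35 in zero fiber WT (n = 6; two-sided exact permutation p = 0.2, adjusted p = 0.674). No comparison of this ratio had a smaller p. The difference of 0.34 was 0.43 in the lower and 0.12 in the higher series.

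In heme breakdown, Hmox1, the stress-inducible heme oxygenase (chromosome 8, 75093621 to 75100589, plus strand), was low in all sets. Set means lay between 14 ± 3.65 CPM in control AD and 16.1 ± 5.23 CPM in HAMSAB WT (SD, n = 8 each), and single libraries between 8.75 and 26.4 CPM. The median was 31 reads per library. Log2 fold changes ran from -0.18 (zero fiber against control in WT) to 0.23 (HAMSAB against zero fiber in WT), none called. With 1 library left out the first ran from -0.35 to -0.04 and the second from 0.09 to 0.40. Within the lower and higher series the first was -0.13 and -0.17 and the second 0.02 and 0.39. Blvrb, biliverdin reductase B (chromosome 7, 27447978 to 27466144, plus strand), was highest in zero fiber WT, where the lowest, median and highest values were 57.9, 72.4 and 107 CPM. Control WT libraries gave 50.3, 64.7 and 72.7 CPM, and HAMSAB WT libraries 57.5, 64.4 and 76.6 CPM. The zero fiber libraries were the most spread and overlapped both other diets. Zero fiber against control in WT gave a log2 fold change of 0.25 ± 0.12 (SE; edgeR adjusted p = 0.657), not called, and the fits without 1 of the 14 libraries gave 0.15 to 0.36. As a difference of mean log2(CPM + 1) it was 0.28 in all libraries, 0.65 in the higher series (2 against 7) and 0.36 in the lower, which held 1 control library. HAMSAB against zero fiber in WT was -0.23 in all, -0.65 in the higher series (3 against 2) and -0.01 in the lower (5 against 4), so the zero fiber difference from HAMSAB rested on the 2 higher-series libraries.

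Ireb2, also called IRP2, the iron sensor that binds IREs (chromosome 9, 54863789 to 54912530, plus strand), had set means between 68.4 ± 10.5 CPM in zero fiber WT (SD, n = 6) and 80.8 ± 31.8 CPM in zero fiber AD (n = 8). The latter held 1 library at 155 CPM, the low-depth zero_fiber_AD_M replicate 2 with 10 Ireb2 reads, and was 71.0 ± 12.9 CPM (n = 6) without the 2 doubted libraries. Log2 fold changes ran from -0.12 (HAMSAB against control in AD) to 0.11 (AD against WT on control), none called. The first was -0.24 in the lower series and 0.04 in the higher. The second was -0.06 in the lower, with 1 WT library, and 0.04 in the higher.

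How the genes varied together was taken from their deviations from the 12 group means of log2(CPM + 1), over 46 libraries. Of the 45 pairs of the 10 genes, 1 passed adjustment over the pairs: Fth1 was low where Ireb2 was high (Pearson r = -0.64, permutation p = 1e-05, the smallest that 100000 permutations give, adjusted 0.00045). Spearman's rho was -0.52 (permutation p = 0.00032, adjusted 0.0144). The permutations shuffled all 46 deviations freely, although those of a group are tied by its mean, so these p-values can be too small. No p-value was computed without the doubted libraries. Without the 2 libraries farthest from the median of Fth1 r was -0.54, and without the 2 doubted libraries -0.52. Within the lower series it was -0.74 and within the higher -0.35. The other 44 pairs had r between -0.4 and 0.4, the 2 ferritin chains among them.

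Both genes of this pair moved with a measure of the libraries, added after seeing the data: the slope of log2 gene level, relative to the mean of all libraries, on log2 length of the principal transcript over 11982 of the tested genes, 1 slope per library. Fth1 has a transcript of 929 bases and Ireb2 of 5770, beside a median of 2747.5 over tested genes. The level of Fth1 fell with the slope (Pearson r = -0.68, permutation p = 1e-05, the smallest possible, adjusted over the 10 genes 5e-05; Spearman's rho = -0.61, permutation p = 3e-05) and that of Ireb2 rose with it (r = 0.64, p = 1e-05, adjusted 5e-05; rho = 0.54, permutation p = 0.00012). Without the 2 libraries farthest from the median slope these were -0.55 and 0.46. Within the lower series r was -0.75 for Fth1 and 0.79 for Ireb2, and within the higher -0.52 and 0.19. For 3 more of the 10 genes r passed adjustment. Tfrc (4890 bases) rose with the slope (r = 0.48, permutation p = 0.00087, adjusted 0.0029; rho = 0.44, permutation p = 0.00265), and was at 0.41 without the 2 farthest libraries, 0.42 in the lower series and 0.58 in the higher. Blvrb (1028 bases) fell (r = -0.34, permutation p = 0.02, adjusted 0.0401; rho = -0.34, permutation p = 0.0197), and was at -0.36, -0.08 and -0.65 in the same order. Slc40a1 also fell (r = -0.36, permutation p = 0.0147, adjusted 0.0367), although its 3370 bases are above the median length. For Slc40a1 rho was -0.28 (permutation p = 0.0587, adjusted 0.117) and did not pass, and r was -0.27 without the 2 farthest libraries, -0.38 in the lower series and -0.02 in the higher. With the slope regressed out of both, the correlation of Fth1 with Ireb2 was -0.36, and -0.27 without the 2 doubted libraries.

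Mean slopes were -0.0362 ± 0.0385 in HAMSAB AD, 0.0130 ± 0.0513 in zero fiber AD and 0.0191 ± 0.0334 in control AD (SD, n = 8 each), so the set with the highest Fth1 also had the lowest mean slope. With each library's length trend removed, an alternative also added after seeing the data, the log2 fold change of Fth1 in AD was 0.24 (edgeR adjusted p = 0.394) for HAMSAB against zero fiber and 0.17 (adjusted p = 0.413) against control, neither called.

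**Figure D4:**
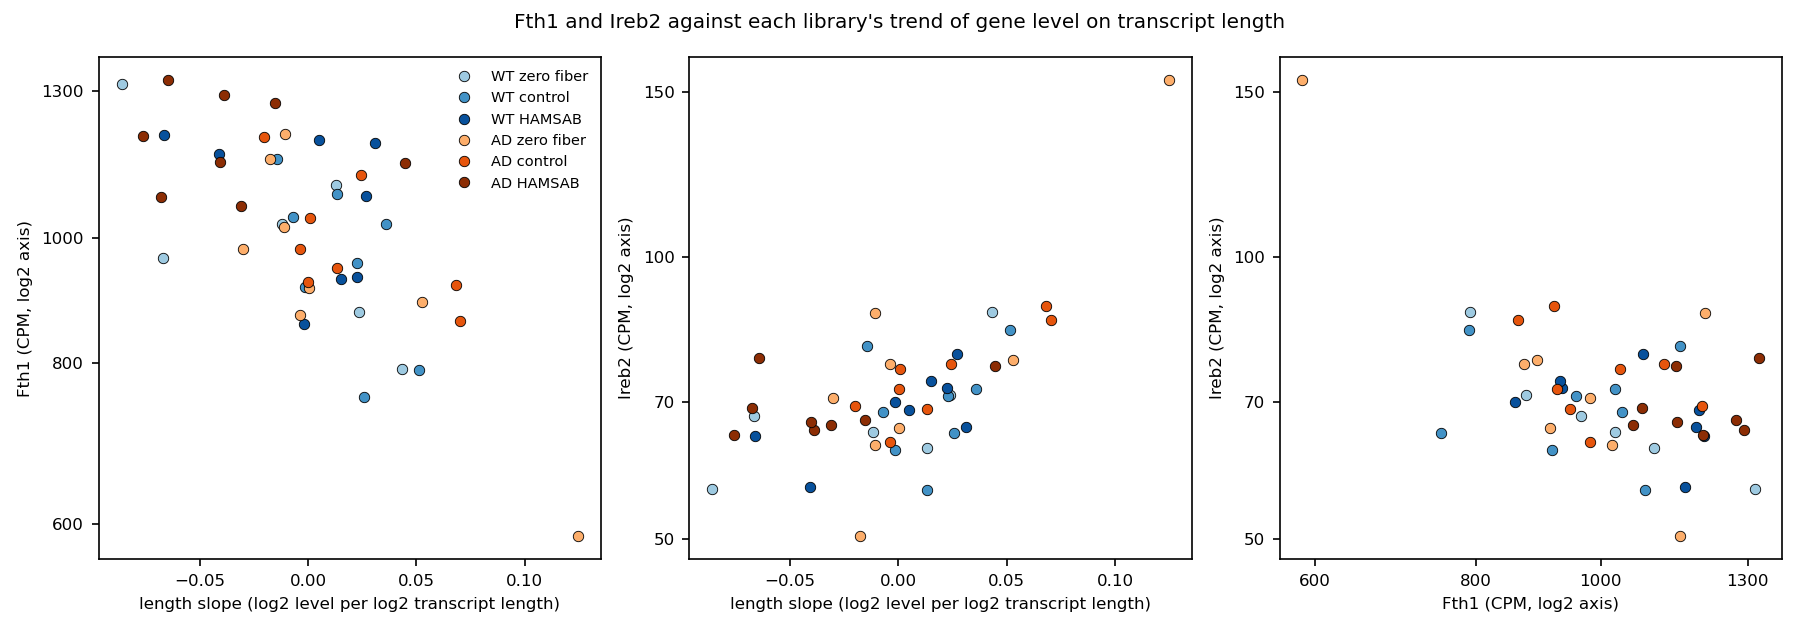
Level of Fth1 (left) and Ireb2 (middle) in CPM (log2 axes) against each library's slope of log2 gene level on log2 transcript length, and Ireb2 against Fth1 (right), 1 point per library. Fth1 falls and Ireb2 rises with the slope (r = -0.68 and 0.64), and the point at the far end is the low-depth library with 38 Fth1 reads.

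Globin reads, which mark red blood cells or their free RNA, were set beside the iron genes because red cells are the main source of heme iron for macrophages. Of 6 globin genes listed, 4 are in the table (Hba-a1, Hba-a2, Hbb-bs and Hbb-bt), and their sum ran from 0.756 to 684 CPM over the libraries. Set medians were 120 CPM in zero fiber WT, 50.01 in control WT and 34.6 in HAMSAB WT, and 132, 15.5 and 16.3 CPM in zero fiber, control and HAMSAB AD. Mean log2(CPM + 1) of globin was higher on zero fiber than on control by 2.88 in AD (two-sided exact permutation p = 0.00373) and by 1.88 in WT (exact p = 0.00733), and lower on HAMSAB than on zero fiber in AD (difference -3.01, exact p = 0.00513). Each had an adjusted p of 0.0659 over 27 tests and did not pass. Single libraries decide that call. The lowest adjusted exact permutation p was 0.0252 for HAMSAB against zero fiber in AD (without HAMSAB_AD_M replicate 1; it also passed without zero_fiber_AD_F replicate 3). It was 0.0336 for zero fiber against control in AD (without control_AD_F replicate 1 or zero_fiber_AD_F replicate 3) and 0.0462 in WT (without control_WT_M replicate 4). Without the 2 doubted libraries each was 0.15. In the lower and higher series the differences were 3.80 and 1.96 for zero fiber against control in AD, 2.98 (1 control library) and 0.82 in WT, and -3.37 and -2.86 for HAMSAB against zero fiber in AD. In WT, globin was also lower on HAMSAB than on zero fiber (difference -2.24, adjusted exact permutation p = 0.179). Between genotypes, globin was lower in AD than in WT on each diet. The differences were -0.58 on zero fiber, -1.58 on control and -1.35 on HAMSAB (adjusted exact permutation p = 0.91, 0.179 and 0.674). Blvrb had the signs of the globin differences of zero fiber against control and of HAMSAB against zero fiber. Its log2 fold changes of zero fiber against control were 0.02 in AD and 0.25 in WT. Those of HAMSAB against zero fiber were -0.05 in AD and -0.21 in WT, none called. Both AD values of Blvrb changed sign with some single libraries left out. Hmox1 did not have these signs. Its values were 0.01 in AD and -0.18 in WT for zero fiber against control. For HAMSAB against zero fiber they were 0.07 in AD and 0.23 in WT, none called. The comparisons share libraries, so the signs of a single gene do not tell whether it followed globin.

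Across the 46 libraries, no correlation of an iron gene with the globin level passed adjustment over the 10 genes. The closest was Slc11a1 (Pearson r = -0.34, permutation p = 0.019, adjusted 0.19; Spearman's rho = -0.29, permutation p = 0.0498, adjusted 0.498). It was -0.27 without the 2 libraries farthest from the median globin level, -0.51 within the lower series and -0.16 within the higher. On deviations from the group means it was -0.33. In the fit over all genes, the slope of Slc11a1 on log2 globin level was -0.04 ± 0.02 (SE; edgeR adjusted p = 0.913). With globin as a term, its log2 fold change of zero fiber against control in AD went from -0.13 to -0.005. Globin itself differed between these 2 sets by 2.88, so that fit cannot tell globin and diet apart. Hmox1, the gene of heme breakdown itself, had r = -0.06 with globin, Blvrb 0.09 and Fth1 -0.19. Ftl1 and Slc40a1 had r of 0.47 and -0.55 in the higher title series (22 libraries) but 0.01 and 0.17 in the lower (23 libraries), and 0.11 and -0.12 over all.

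**Figure D5:**
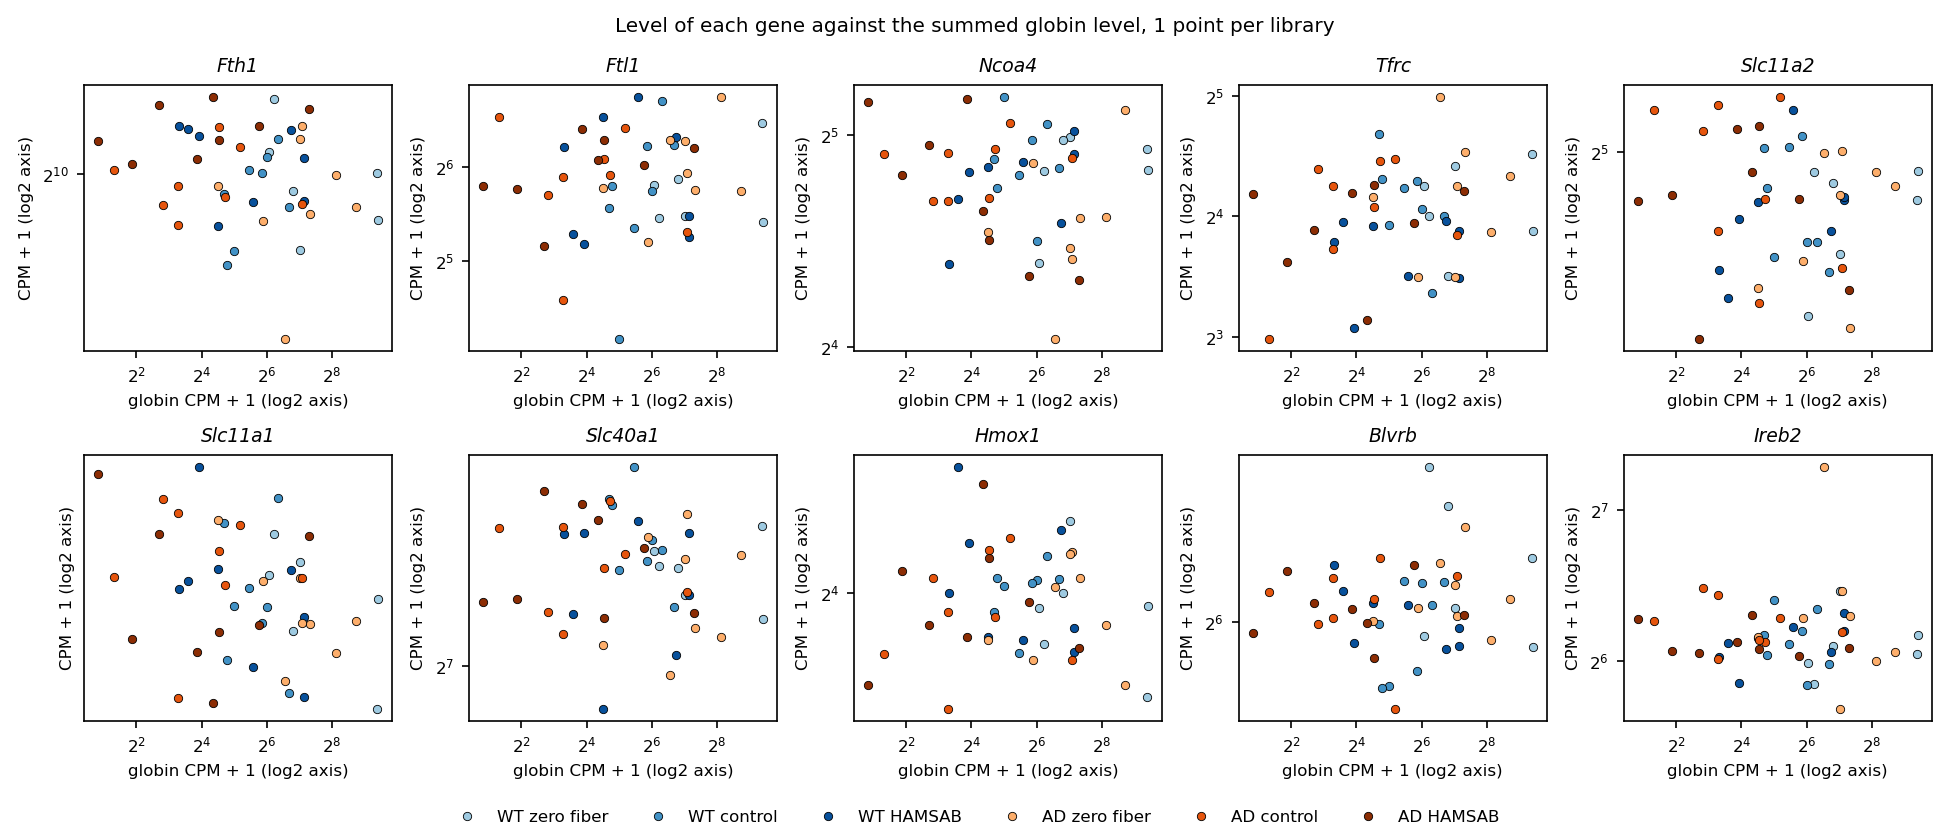
Level of each gene against the summed globin level, both as CPM + 1 on log2 axes, 1 point per library coloured by set. Globin spans from 0.756 to 684 CPM while no gene shows a correlation that passes adjustment, the closest being Slc11a1 at r = -0.34.

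The genes most like each iron gene were ranked by Pearson correlation of the same deviations over 46 libraries, among 10114 named genes whose mean log2 CPM reached 1. Libraries share depth and the length slope, so these are descriptions. They were also picked as the largest of 10114 correlations, which favours high values, and carry no test. Without the 2 doubted libraries the first 3 were the same genes for Fth1, Ftl1, Tfrc and Slc11a2, and are given below where they changed. Fth1 was most like Gngt2 (r = 0.88), a G protein gamma subunit, Cd300c2 (0.83), a myeloid surface receptor, and Tmsb4x (0.82), the actin-binding thymosin beta 4. Their transcripts have 1587, 1187 and 768 bases. Ireb2 was most like Anks1 (0.73), Ccdc15 (0.72) and Parp12 (0.72), and without the 2 doubted libraries like Pds5a, Anks1 and Dlst (0.61, 0.61 and 0.59). Ftl1 ranked with Rabac1 (0.69), Ppp1ca (0.65) and Gng5 (0.63), and Slc40a1 with Ostc (0.73), Tmem170b (0.72) and Tmem50b (0.67), the last replaced by Stx7 (0.67) without the doubted libraries. For Tfrc the leading genes were Bak1 (0.60), Uvrag (0.55) and Sh2b1 (0.55), for Slc11a2 Pprc1, Fbxo38 and Pip5k1c (0.58, 0.56 and 0.55), and for Slc11a1 Tor4a, Rap1b and Pxn (0.65, 0.64 and 0.62), or Ifi30, Tor4a and Cmklr1 (0.69, 0.65 and 0.64) without the doubted libraries. Ncoa4 was most like Madd, Kdm2b and Zbtb1 (0.65, 0.61 and 0.61), with Ccdc84 (0.57) in place of Kdm2b without those libraries. Hmox1 was most like Alg2, Ccnd1 and Tle3 (0.57, 0.56 and 0.55), with Gng2 (0.55) in place of Tle3. Blvrb was most like Fdx1, a ferredoxin of the mitochondrial matrix (0.61), Tax1bp1, an autophagy receptor (0.59), and Ddx18 (0.58), and without the doubted libraries like Ankrd23, Tax1bp1 and Fdx1 (all 0.62). None of these leading genes was another of the 10 iron and heme genes.

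A longer list of 66 further iron and heme genes (transport, storage, iron-sulfur assembly, heme synthesis and breakdown) had 47 tested members, and edgeR called 0 of them in each of the 14 comparisons. At an unadjusted p under 0.05 the most in 1 comparison was 5 higher and 6 lower, for HAMSAB against control in AD (where 15.3% of all tested genes passed that limit), with a median log2 fold change of -0.00020. The highest median was 0.08, for AD against WT on HAMSAB (30 higher and 17 lower). Of the cell type marker lists, only globin genes were called. Hba-a1 was lower on HAMSAB than on zero fiber in WT (log2 fold change -2.30 ± 0.55, SE; edgeR adjusted p = 0.0192). Without zero_fiber_WT_M replicate 2, the library with the most globin, 1 gene was called there instead of 265. Whether it was Hba-a1 is not given here. Hba-a2 was higher on zero fiber than on control in AD (3.63 ± 0.75, SE; edgeR adjusted p = 0.0329). Without zero_fiber_AD_F replicate 1, 1 of the doubted libraries, 0 genes were called there, so this call rests on that library. All 4 globin genes were called in the slope on their own sum, which holds by construction.

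Perivascular macrophages, which take up hemoglobin and handle iron, could share in these counts. Their 11 listed markers summed to 163 to 464 CPM over the libraries, and in HAMSAB AD to between 170 and 224 CPM, against 169 to 403 CPM in control AD and 184 to 464 CPM in zero fiber AD. All 8 tested perivascular genes were lower in HAMSAB AD than in control AD (0 called, beside 0.0743% of all tested genes, and 8 at an unadjusted p under 0.05, beside 15.3%; median log2 fold change -1.27), the comparison in which Fth1 was 0.25 higher. Their part in the values of the iron genes was not tested.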

How the data were processed

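Raw read counts per gene symbol were deposited without normalization, 1 column per library. Per the submitters' processing notes, the tools were STAR 2.5.2b and featureCounts 1.5.2, on GRCm38 (mm10). No source used here gives the annotation release, strandedness or how multi-mapping reads were counted, so overlapping genes on opposite strands cannot be told apart. Replicate numbers were given in accession order and pair no libraries. No 2 libraries held identical counts.

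Counts were tested in 1 edgeR fit over all 46 libraries (R 4.3.3, edgeR 4.0.16, TMM, filterByExpr, quasi-likelihood F test) with 12 group means (diet, genotype and sex). Sexes were averaged with equal weight and p-values adjusted over 12121 genes. The globin slope added log2(summed globin CPM + 1) to that fit. Levels are CPM, ratios and correlations used log2(CPM + 1), and correlations used 100000 permutations. Intervals cover 95%. The edgeR test and the permutation test were checked on simulated data.

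All 10 genes were tested in every comparison, and single genes are described in only some of them. Listed iron, heme and marker genes are named where called, at most 4 per comparison, and the 3 most alike genes of each member are named. Members and lists were chosen with earlier results of these data known. Alternatives were DESeq2 1.42.0, its size factors, limma 3.58.1 voom with quality weights, no filter, a title-series term, a globin term, only the libraries compared, a pseudocount of 0.5, leaving out each library or the 2 doubted ones and, added after seeing the data, removal of the length trend. Positions came from GENCODE M21.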

Additional observations from a re-analysis of the deposited data

Results flagged for a closer look

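Single libraries stood apart from the other 3 of their group by Dixon's test in 8 of 121 groups of 4 libraries and genes (globin counted as 1 gene), where chance gives about 1 in 20. Tfrc was 11.3 CPM in HAMSAB_AD_M replicate 4, against 17.2 to 18.2 CPM in the others. Slc11a2 was 31.3 CPM in control_WT_F replicate 2, against 24.6 to 25.4 CPM, and 21 CPM in zero_fiber_AD_M replicate 1, against 29.7 to 31.1 CPM. Ncoa4 was 24.8 CPM in control_AD_M replicate 1, against 29.1 to 29.6 CPM. Hmox1 was 11.4 CPM in control_WT_M replicate 2, against 15.7 to 16.1 CPM. Ireb2 was 76.6 CPM in HAMSAB_AD_M replicate 2, against 66.2 to 67.1 CPM. Globin was 157 CPM in HAMSAB_AD_M replicate 1, against 0.756 to 22.3 CPM, and 140 CPM in HAMSAB_WT_F replicate 1, against 8.88 to 21.8 CPM. In these last libraries no iron gene was set apart by the same test.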

How the results depend on the processing

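None of the 10 genes was called in any of the 14 comparisons under any of the 9 other settings or in the 46 fits that each left out 1 library, where the lowest adjusted p was 0.125 (Fth1, HAMSAB against zero fiber in AD, without zero_fiber_AD_M replicate 3). Among those settings the lowest adjusted p was 0.115, for Ftl1 in males against females with no filter. Directions of small differences changed: of 140 values, 118 of 130 kept their sign with the globin term, 128 with the title-series term or voom, and 130 to 136 under the length trend, size factors, DESeq2, no filter or without the doubted libraries (117 of 120 with only the libraries compared). Of the values printed above, Ftl1 in HAMSAB against zero fiber in AD turned to 0.00 with no filter (log2 0.0044) and 0.22 with the globin term, and ran from -0.10 to 0.16 with 1 library left out. Fth1 in zero fiber against control in AD (-0.04) was 0.031 without the doubted libraries and ran from -0.11 to 0.015. Ftl1 in AD against WT on zero fiber ran from -0.057 to 0.48. The number of genes called over the whole table moved by more than 1.5 times, so the shares called beside the counts of 0 are uncertain. For HAMSAB against zero fiber it was 29 in AD (3 to 204 over the other settings) and 265 in WT (203 to 505, and 1 without zero_fiber_WT_M replicate 2). For HAMSAB against control it was 9 in AD (9 to 357) and 34 in WT (1 to 433), and for zero fiber against control 7 (0 to 269) and 1 (1 to 183). For AD against WT it was 1 on zero fiber (0 to 93), 0 on control (0 to 149) and 204 on HAMSAB (132 to 464). The genotype difference gave 131 for HAMSAB against zero fiber (121 to 374), 0 for HAMSAB against control (0 to 66) and 0 for zero fiber against control (0 to 207), males against females 15 (12 to 169) and the globin slope 4 (4 to 75). No paired analysis was possible because the labels give no replicate numbers. At medians of 31 to 63 reads per library, counting error was 13.1% to 18.4% for Tfrc, Slc11a2, Ncoa4 and Hmox1, beside 14.4% to 27.7% of variation within sets. For globin, 1 or 2 of the tests that left out 1 library passed adjustment for zero fiber against control in both genotypes. The same held for HAMSAB against zero fiber in AD, but in WT none passed (lowest adjusted exact permutation p = 0.134). AD against WT reached 0.042 on control and passed on no other diet.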
